A study of Rattus norvegicus with 4 samples.

Results

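Npy, Penk and Pnoc are 3 genes of neuropeptide precursors that are known from chromaffin cells and neurons. They were chosen by name, as every probe set that the array's probe table assigns to exactly one of these symbols. That gave 5 probe sets, 1 for Npy, 2 for Penk and 2 for Pnoc, and the 3 genes stand among 720 that the array named with at least 1 probe set. Total RNA of rat samples, whose tissue was labelled as brain, adrenal medulla, had been hybridised to 4 Affymetrix oligonucleotide arrays. The groups were undigested day 1, digested day 1, undigested day 7 and digested day 7, with 1 array each. The labels give no strain, age, treatment or culture condition, and they do not say what was digested. With 1 array per group no value has an error, sizes stand without a spread between samples, and no test was made unless limma is named.

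Neuropeptides are made as long precursors, which enzymes cut into short active peptides inside dense-core granules, the vesicles that in chromaffin cells also hold catecholamines. The Npy precursor yields neuropeptide Y, a peptide stored with noradrenaline in sympathetic neurons and chromaffin cells. The Penk precursor, proenkephalin, carries several copies of the enkephalins, which act on opioid receptors. The Pnoc precursor yields nociceptin, which is related to the opioid peptides but acts on a receptor of its own, the product of Oprl1. Transcription of such precursor genes is known to respond to cyclic AMP, depolarisation and growth factors.

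The sequence of the Npy promoter is printed because the promoter table used held no match for Penk or Pnoc. It runs from 250 bases before to 50 bases after the start of the gene and comes from RefSeq (build GRCr8, chr4:80211861-80212160, plus strand). Of the 3 genes, 1 was matched in the promoter table used.

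Npy promoter: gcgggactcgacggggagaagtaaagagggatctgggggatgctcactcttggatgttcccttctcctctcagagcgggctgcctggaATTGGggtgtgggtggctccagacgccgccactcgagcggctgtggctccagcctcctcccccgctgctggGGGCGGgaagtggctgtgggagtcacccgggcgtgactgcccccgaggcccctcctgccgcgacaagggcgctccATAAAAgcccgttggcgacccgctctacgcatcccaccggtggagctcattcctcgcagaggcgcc

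Capitals mark the matches found on either strand, and a share is that of 33469 promoters of the same length that hold the same letters at least once. The TATA-like letters ATAAAA begin 16 bases before the start (20.5% of promoters). A GC box, spelled GGGCGG, begins 91 bases before it (33.1%). The CCAAT box, found on the opposite strand, begins 162 bases before it (37.5%). The search also covered TATAAA (14.2%), the cyclic AMP response element TGACGTCA (1.83%), its overlapping part TGACG (21.2%) and the AP-1 site TGANTCA (7.33%), which were not in this window. The motifs were chosen with the sequence in view. The G and C content of the Npy window was 67.7%, against a median of 51.7% over all promoters.

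Signals were scaled so that each array had the same median, set to a floor of 51.9 where lower, and compared as log2 differences. A probe set was counted when it differed by at least 2-fold. The 632 probe sets with a mean signal of at least 229, on the log2 scale, formed the analysed set, and 4 of the 5 member probe sets belonged to it. The dimmer Penk probe set did not. The labelled tissue was checked against markers of chromaffin cells. Th, the rate-limiting enzyme of catecholamine synthesis, Dbh, which makes noradrenaline, and Ddc, which makes dopamine, all had analysed probe sets, with lowest signals over the 4 arrays of 163899, 1713 and 9721. Chga and Chgb, the chromogranins, had no probe set named for them here, and the 2 probe sets of the vesicle transporter gene Slc18a2 were dim, between 31.3 and 197. On the digested day 7 array the bacterial hybridisation controls were low (median log2 of -1.35 against the other arrays, 9 probe sets). The signal of beta-actin's 3′ probe set over its 5′ probe set, a measure of RNA or label integrity, was 2.66 on the undigested day 7 array and 1.35 to 1.48 on the others. The same ratio for the GAPDH control was 1.18 there and 1.01 to 1.10 on the others.

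**Figure D1:**
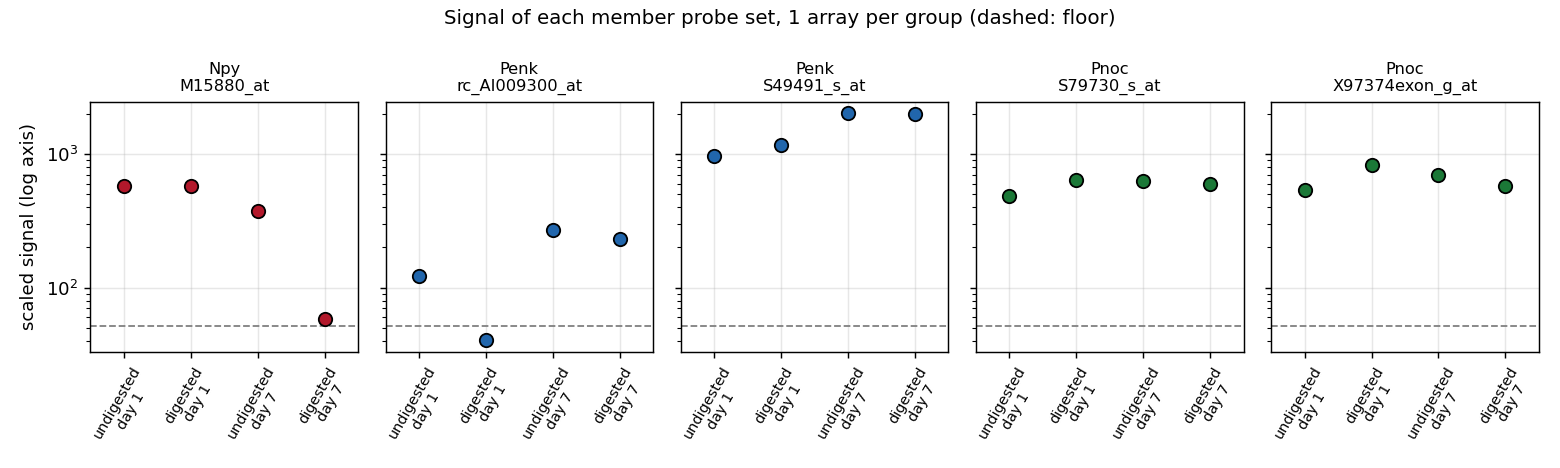
Scaled signal (log axis) of each of the 5 member probe sets on the 4 arrays, 1 point per array, with the floor of 51.9 as a dashed line. Npy is near the floor on the digested day 7 array alone, both Penk probe sets are higher on both day 7 arrays than on both day 1 arrays, and both Pnoc probe sets stay within a narrow band.

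Npy was read by probe set M15880_at. Its scaled signal was 575 in the undigested and 578 in the digested sample at day 1, 376 in the undigested sample at day 7 and 58.3 in the digested sample at day 7. The day 1 arrays thus gave almost the same level, the undigested day 7 array a lower one and the digested day 7 array a level just above the floor. In order of level, the gap between the day 1 arrays was 0.01 on the log2 scale, that from there to undigested day 7 was 0.61 and that to digested day 7 was 2.69.

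The digestion difference of Npy was 0.01 at day 1 (log2) and -2.69 at day 7. Of the 632 analysed probe sets, 1 had a lower value at day 7 than Npy. At day 1, 186 lay lower than Npy and 445 higher. For day 7 minus day 1, Npy stood at -0.61 in the undigested samples, with 80 probe sets lower, and at -3.31 in the digested samples, with 0 lower. The difference of differences, digestion at day 7 less digestion at day 1, was -2.70, with 3 probe sets lower. Past 2-fold were 3.48% of the analysed probe sets for digestion at day 1, 11.4% for digestion at day 7, 13.3% for the day in undigested samples, 8.07% for the day in digested samples and 14.4% for the difference of differences. Npy was among them in the comparisons that use the digested day 7 array and in no other.

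The size of these Npy differences depended on how low signals were treated, since 1 value lay near the floor. With the floor raised to a signal of 162, the 40th percentile, the digestion difference at day 7 became 2.32-fold and the day difference in digested samples 3.56-fold, both lower. With the floor's value added to every signal in place of flooring, they became 3.88-fold and 5.71-fold lower. Without further scaling, after quantile normalisation and after scaling on chromaffin markers, the digestion difference at day 7 ran from -2.74 to -2.18 (log2). In the undigested samples, which do not use the low value, Npy was 1.53-fold lower at day 7, 1.79-fold in the values as deposited and 2.69-fold when scaled on chromaffin markers.

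The chromaffin marker genes Th, Dbh and Ddc were also lower in the digested than in the undigested sample at day 7, and Npy was lower by more. The log2 differences there were -0.65 for Th, -0.50 for Dbh and -0.37 and -1.21 for the probe sets of Ddc. Slc18a2, the vesicular monoamine transporter, was dim and went the other way, by 0.50 (signals of 114 and 161) and by 1.92 (signals of 37.8, under the floor, and 197). Relative to Th, Npy fell by 2.04 on the log2 scale, relative to Dbh by 2.19 and relative to Ddc, by its brighter probe set, by 2.32. A change relative to another gene on the same arrays is not altered by a scaling factor per array. At day 1 the same 3 values were -0.07, -0.52 and -0.14. In the digested samples Npy fell between the days by 2.80 relative to Th, 3.58 relative to Dbh and 3.73 relative to Ddc. The day 7 and between-day values rest on the Npy signal of 58.3, near the floor. With the higher floor Npy fell by 0.56, 0.72 and 0.84 relative to Th, Dbh and Ddc for digestion at day 7, and by 1.32, 2.10 and 2.26 between the days in digested samples. In bulk RNA, fewer cells of a type and less RNA per cell cannot be told apart.

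Summed over the 6 probe sets of the 4 chromaffin marker genes on the array (of 11 listed), the scaled signal at day 1 was 279661 without and 302877 with digestion, and at day 7 it was 384051 without and 250380 with digestion. The sum is mostly Th. For neuron markers (11 of 18 genes, 21 probe sets) the sums were 343073, 373852, 286719 and 249552. Single neuron markers differed in direction for digestion at day 7, where the list's median was -0.12 and that of all analysed probe sets -0.05. The 4 probe sets of Snap25 (0.09 to 0.34), Gap43 (0.58) and the analysed one of Slc32a1 (1.62) were higher in the digested sample. Nefm (-0.87), Eno2 (-0.74), Syp (-0.32) and both of Nefl (-0.46 and -0.07) were lower. So were Syn1 (-0.53), the analysed one of Map2 (-0.44) and both of Nefh (-0.61 and -0.12). Glia and Schwann cell markers (10 of 15 genes, 22 probe sets) summed to 15014, 15784, 10129 and 10377. Of these, the probe set of Sox10 was near or under the floor, at 26.8 to 83.9, and both of S100b lay between 34.6 and 96.4. The analysed glial probe sets were 8, of Cnp, Glul, Mag, Cspg5 and Slc1a3, and Cnp read 1615 to 2672. For digestion at day 7, 2 of the 8 were past 2-fold higher and 0 lower, beside 6.96% and 4.43% of all. The median log2 difference of the 8 was 0.31. Past 2-fold were 1 of Glul at 2.25-fold and Cspg5 at 5.27-fold, which rests on a low undigested day 7 signal of 97.0. The other analysed probe sets of Glul gave 0.43 and 0.31 (log2), and those of Mag 0.31 and -0.99. Cnp (-0.65) and Slc1a3 (-0.29) were lower. For digestion at day 1, 1 of the 8 was past 2-fold higher and 0 lower (median 0.05), beside 2.06% and 1.42% of all. Between the days 0 were higher and 3 lower without digestion (median -0.51), beside 7.28% and 6.01% of all. With digestion 0 were higher and 2 lower (median -0.37), beside 3.32% and 4.75% of all. The adrenal cortex list was represented by Scarb1 alone (summed signals of 6326 to 8845 over 3 probe sets). Endothelium and fibroblasts were represented by Pdgfrb and Vim (summed 189 to 361), with Vim under the floor on all arrays. For immune cells there were Il1b, Itgam and Tnf (summed 120 to 464), with 8 of 16 values at the floor. The part of cell makeup, and of the low hybridisation controls on the digested day 7 array, in the Npy result was not tested.

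Penk was read by S49491_s_at, the brighter of its probe sets, at 969 and 1169 in the undigested and digested samples at day 1 and at 2015 and 1976 at day 7. Both day 7 arrays were above both day 1 arrays, and the gap between the groups of arrays, 0.76 on the log2 scale, was wider than the gaps within a day (0.27 and 0.03). The dimmer probe set, rc_AI009300_at, read 123 and 40.3 at day 1 and 269 and 231 at day 7. It gave the same separation of the days, with a value under the floor in the digested sample at day 1.

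Between the days Penk was higher by 1.06 in the undigested samples (log2) and by 0.76 in the digested samples by the brighter probe set. The dimmer probe set gave 1.13 in the undigested samples. Its difference in the digested samples, 2.16, rests on a value at the floor and has no firm size. Of the analysed probe sets, 31 were higher than Penk in the undigested and 42 in the digested comparison. At least 2-fold higher at day 7 were 7.28% of all in the undigested samples, Penk among them, and 3.32% in the digested samples, where Penk was not. The undigested value fell short of 2-fold without further scaling (1.77-fold) and after quantile normalisation (1.79-fold).

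For digestion, the Penk probe sets differed at day 1. The brighter gave 0.27 and the dimmer -1.24 (log2), the latter again with the value under the floor, a gap of 1.51. Over 124 other genes with several analysed probe sets, the SD of the difference between a pair of probe sets was 0.45 for that comparison. At day 7 they gave -0.03 and -0.21, and the brighter gave 0.12 in the values as deposited and 0.48 on chromaffin markers. Neither day gave a digestion difference of Penk past 2-fold by the analysed probe set, beside 2.06% of all higher and 1.42% lower at day 1, and 6.96% higher and 4.43% lower at day 7.

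In the undigested samples the catecholamine enzyme genes Dbh and Ddc went the same way as Penk between the days, and Th changed little. In the digested samples Th, Dbh and Ddc did not go one way. Without digestion Dbh was higher at day 7 by 1.29 (log2) and Ddc by 0.95 and 1.78. Th stood at 0.21, where the median over all analysed probe sets was 0.17. In the digested samples Th stood at -0.51, Dbh at 0.27 and Ddc at 0.42 and -0.08, beside 0.76 for Penk. In the undigested samples, relative to Dbh, Penk stood at -0.23, relative to Ddc at 0.11 and relative to Th at 0.84. Scaled on the mean of these 3 markers, Penk was 1.18-fold higher at day 7 in the undigested samples and 1.62-fold in the digested samples. The undigested day 7 array is also the one with the high beta-actin ratio, and its part in the difference was not tested. In the digested samples Penk was 1.62-fold to 1.74-fold higher at day 7 under the 5 other settings of scaling and floor. That comparison uses the digested day 7 array, where the hybridisation controls were low (-1.35), and their part was not tested either.

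Penk and Npy changed in opposite directions between the days. Relative to Npy, Penk was higher at day 7 by 1.67 in the undigested samples and by 4.07 in the digested samples (log2), values that no scaling factor per array can alter. At day 1 the digestion difference of Penk relative to Npy was 0.26 and at day 7 it was 2.66. The values of 4.07 and 2.66 rest on the Npy signal near the floor, and with the higher floor they were 2.59 and 1.19.

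**Figure D2:**
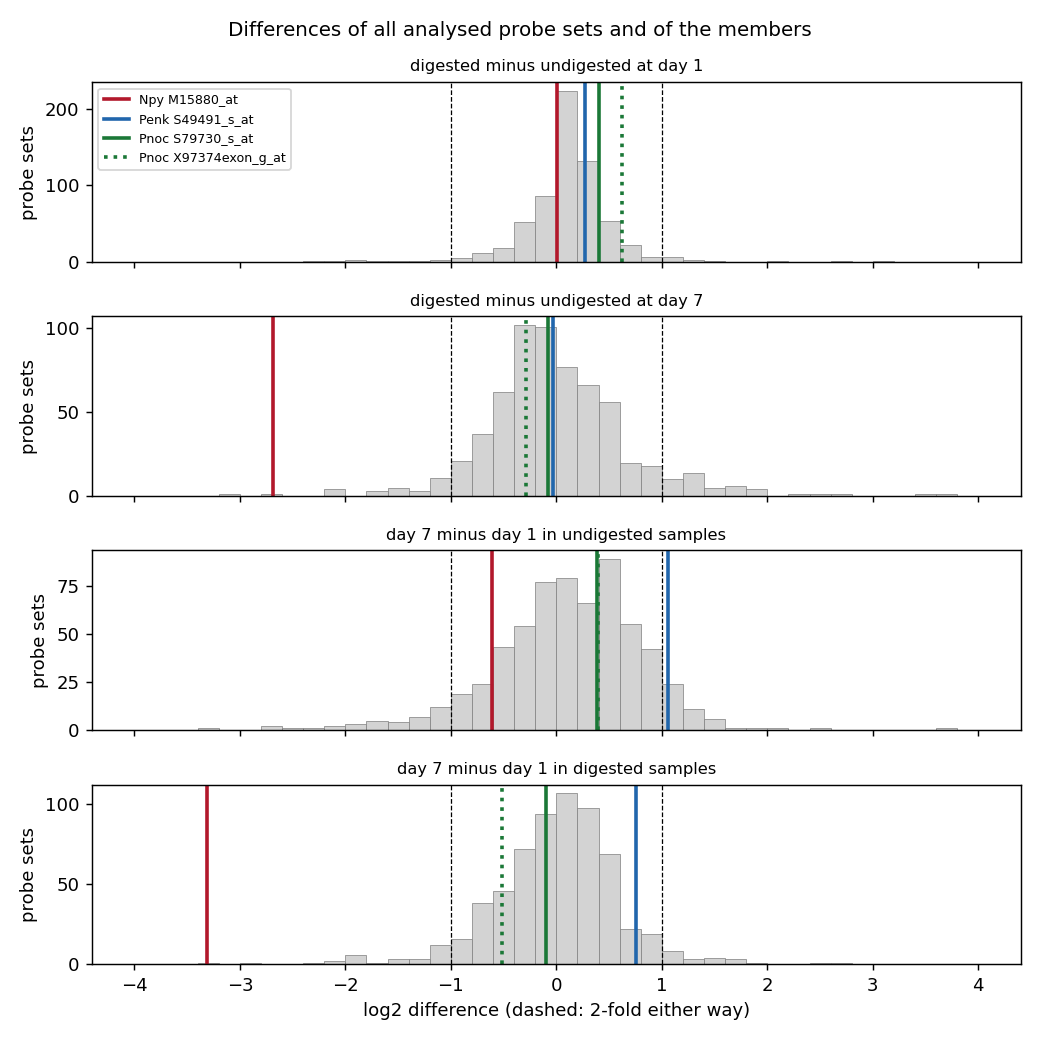
Histograms of the log2 differences of the 632 analysed probe sets in the 4 comparisons, with the 4 analysed member probe sets as coloured lines and 2-fold either way as dashed lines. Npy lies at the lower edge in the comparisons with the digested day 7 array (-2.69 and -3.31), Penk at 1.06 and 0.76 between the days, and the Pnoc probe sets within 2-fold throughout.

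Pnoc varied least. Probe set S79730_s_at read 483 and 639 in the undigested and digested samples at day 1 and 629 and 595 at day 7, a range of 1.32-fold. Probe set X97374exon_g_at read 533 and 820 at day 1 and 700 and 574 at day 7, a range of 1.54-fold. Both put digested day 1 highest, undigested day 7 next, then digested day 7, and undigested day 1 lowest, with neighbours in that order at most 0.30 apart on the log2 scale.

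At day 1 Pnoc was higher in the digested sample by 0.40 and 0.62 (log2), where the median over all analysed probe sets was 0.12 and the pooled SD between probe sets of a gene 0.32. Of the 632, 94 and 35 were higher than the Pnoc probe sets. The direction held under all 5 settings of scaling and floor, at 0.15 to 0.40 and 0.37 to 0.62. At day 7 the digestion differences were -0.08 and -0.29, and these turned to 0.43 and 0.22 when scaled on chromaffin markers. For the first probe set quantile normalisation and the values as deposited also gave a positive sign. For day 7 minus day 1 they were 0.38 and 0.39 in the undigested samples, where scaling on chromaffin markers turned both negative (-0.43 and -0.42), and -0.10 and -0.51 in the digested samples. None of the Pnoc differences reached 2-fold, beside the shares of 3.48% to 13.3% over all analysed probe sets.

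With limma's additive fit of digestion and day over the 4 arrays, which leaves 1 residual degree of freedom, no member passed. Npy had a day difference of -1.96 ± 0.55 (SE, log2, adjusted p = 0.199) and a digestion difference of -1.34 ± 0.55 (adjusted p = 0.690). For Penk the day difference was 0.91 ± 0.31 (adjusted p = 0.256) and for digestion it was 0.12 ± 0.31 (adjusted p = 0.999). The Pnoc day differences were 0.14 ± 0.32 and -0.06 ± 0.34 (adjusted p = 0.869 and 0.939). Over all 632 probe sets the fit called 1 for day (0.158%, 91 at an unadjusted p under 0.05) and 0 for digestion (0%, 42 at an unadjusted p under 0.05). Its error also holds the difference of differences, which for Npy was -2.70.

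**Figure D3:**
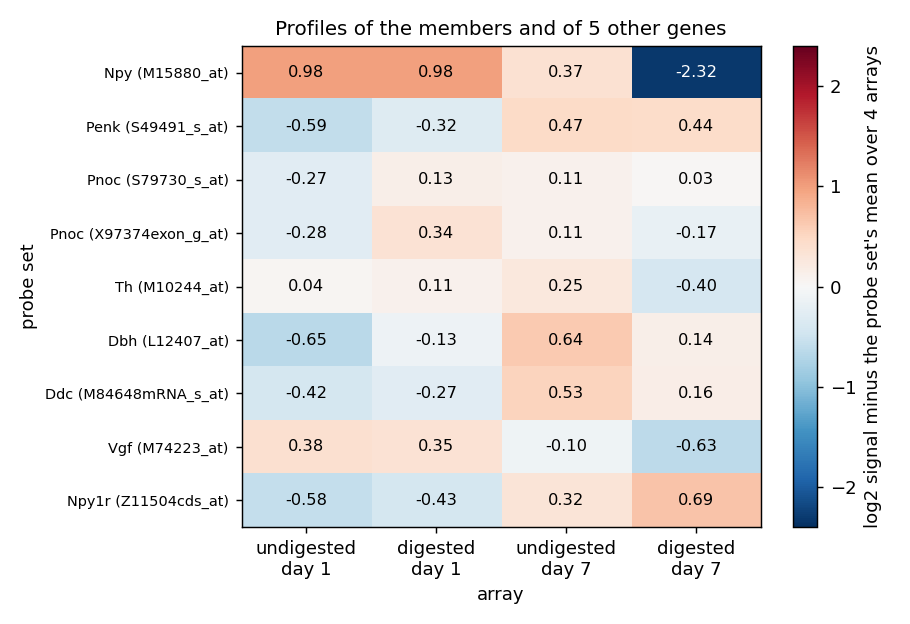
Log2 signal of the 4 analysed member probe sets and of Th, Dbh, Ddc, Vgf and Npy1r on the 4 arrays, each minus its own mean over the arrays; red is above and blue below that mean. Npy drops to -2.32 on the digested day 7 array, while Penk (0.44) and Npy1r (0.69) are above their means there.

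Among the receptors of these peptides, Npy1r, the Y1 receptor of neuropeptide Y, was measured well above the others. It read 1672 and 1859 at day 1 and 3118 and 4037 at day 7 in the undigested and digested samples, highest on the array where Npy was lowest. Its day differences were 0.90 in the undigested and 1.12 in the digested samples (log2). Relative to Npy, Npy1r was higher at day 7 by 1.51 and 4.43, the latter 2.95 with the higher floor. It was the 1 analysed gene of 6 with a probe set on the array, from a list of 10. The other 5, Npy5r and the opioid and nociceptin receptor genes Oprd1, Oprk1, Oprm1 and Oprl1, had 9 dim probe sets with signals of 6.21 to 212 and 19 of 36 values at the floor. No level of the receptor genes of enkephalins and nociceptin could thus be compared between the samples.

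Other peptide precursors were mostly dim. Of 45 listed, 15 had a probe set and 4 an analysed one, namely Avp (vasopressin), Nmu (neuromedin U) and the growth factor genes Bdnf and Igf2. The other 11, Calcb, Cck, Crh, Edn1, Edn3, Gal, Oxt, Pdyn, Sst, Tac1 and Tac3, had 13 dim probe sets at signals of 9.13 to 385. Past 2-fold among 7 analysed probe sets were 0 up and 1 down with digestion at day 1 and 1 up and 0 down at day 7. Between the days 0 were higher and 2 lower without digestion, and 0 went past 2-fold either way with it. All 4 of these calls were of Igf2. Its brighter probe set read 472 and 228 at day 1 and 197 and 350 at day 7, and its other analysed one 295 and 270, then 107 and 383. For digestion the brighter gave -1.05 at day 1 and 0.82 at day 7 (log2), and the other -0.13 and 1.84. Between the days without digestion they gave -1.26 and -1.46. The list's medians were -0.13, 0.25, -0.09 and 0.49 (log2) in that order, against 0.12, -0.05, 0.17 and 0.04 over all analysed probe sets. Past 2-fold with digestion were 2.06% of all up and 1.42% down at day 1, and 6.96% and 4.43% at day 7. Between the days 7.28% of all were higher and 6.01% lower in the undigested samples, and 3.32% and 4.75% in the digested samples.

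Dense-core granule proteins were represented by Vgf, the precursor of a group of secreted peptides, and Slc18a2, of a list of 10. Vgf read 35928 and 35247 at day 1 and 25766 and 17868 at day 7. Like Npy it was lowest on the digested day 7 array, but its differences, -0.53 for digestion at day 7 and -0.48 and -0.98 between the days in undigested and digested samples, were smaller than 2-fold. The enzymes that cut, trim and amidate precursors could not be followed, as 0 of the 17 listed had a probe set named for them here.

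Among receptors of other neuropeptides, 20 of 41 listed genes had a probe set and 8 an analysed one. Past 2-fold were 1 of these 8 probe sets for digestion at day 1, 2 at day 7, 2 between the days in undigested and 1 in digested samples. Over all analysed probe sets the shares were 3.48%, 11.4%, 13.3% and 8.07% in that order. They belonged to Bdkrb1, Avpr2, Hcrtr1 and Bdkrb2. Bdkrb1, the bradykinin B1 receptor, gave -2.23 for digestion at day 1 and 1.67 between the days in digested samples. Both values rest on a low digested day 1 signal of 84.8, beside the floor of 51.9. The dim Bdkrb1 probe set gave -0.84 and 1.30, with its digested day 1 signal under the floor. Avpr2, a vasopressin receptor, gave 1.37 for digestion at day 7 and -1.89 between the days in undigested samples. Both values rest on a low undigested day 7 signal of 108. The dim Avpr2 probe set gave 0.10 and -0.64, with its undigested day 7 signal under the floor. Hcrtr1, an orexin receptor, gave -1.67 for digestion at day 7. Bdkrb2, the B2 receptor, gave 1.02 between the days in undigested samples.

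Of 19 listed transcription factors of the cyclic AMP and activity response, 12 had a probe set and 10 an analysed one. Past 2-fold among 14 analysed probe sets were 1 up and 0 down with digestion at day 1 and 3 up and 1 down at day 7. Between the days 2 were higher and 4 lower without digestion, and 1 was higher and 0 lower with it. Over all analysed probe sets the shares higher and lower were 2.06% and 1.42% with digestion at day 1, 6.96% and 4.43% at day 7, 7.28% and 6.01% between the days without digestion and 3.32% and 4.75% with it. Nr4a3, an orphan nuclear receptor, gave 3.46 for digestion at day 7, a value that rests on a signal of 65.3, near the floor, in the undigested sample. Its day difference in undigested samples, which uses the same signal, was -2.16. The dim probe sets of Nr4a3 gave -1.37 and -1.60 for digestion at day 7, the other direction. At day 7 the AP-1 subunit Jund gave 1.79 for digestion. In the undigested samples the day differences were -1.84 for Jund, -1.31 for Jun, another AP-1 subunit, and 1.02 for the brighter analysed probe set of Egr1, an immediate early gene. The other analysed probe set of Egr1 gave 0.05. Both Jund values rest on a low undigested day 7 signal of 104. Creb1, which codes for the factor that binds the cyclic AMP response element, and Crem, a related gene, stayed within 2-fold by their analysed probe sets in each comparison (0.57 and 0.20 for digestion at day 7).

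The genes with the profile most like that of each member were found by the root mean square difference of log2 signals over the 4 arrays, each profile centred on its mean, among 383 other genes. For Npy they were Cx3cl1 (0.41), Htr1d (0.51) and Itgb7 (0.52), where the median over all genes was 1.42. Cx3cl1, a chemokine gene, read 393, 352, 317 and 74.7 in the order undigested and digested day 1, undigested and digested day 7. Htr1d, a serotonin receptor gene, read 405, 328, 361 and 85.7, and Itgb7, an integrin gene, 673, 557, 641 and 144. By these probe sets all 3 were low on the digested day 7 array alone, as Npy was. For Itgb7 this gave -2.16 for digestion at day 7 and -1.95 for the day in digested samples (log2). Another analysed probe set of Itgb7 gave -0.36 and 0.07.

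For Penk the nearest were Smarcb1, a chromatin remodelling subunit (0.08), Cacna1b, the pore subunit of N-type calcium channels (0.09), and Mapk8ip2, a scaffold of JNK signalling (0.11), with a median of 0.46 over all. Cacna1b read 1577 and 1724 at day 1 and 2957 and 2680 at day 7. Its day differences were 0.91 in the undigested and 0.64 in the digested samples (log2), and another analysed probe set of it gave 0.06 and 0.36. The Pnoc probe sets had different neighbours. For S79730_s_at they were Grk3 (0.04), Chrm4 (0.05) and Fos (0.05), and for X97374exon_g_at Map2 (0.08), Kcnn1 (0.08) and Fgfr4 (0.10), with medians over all of 0.27 and 0.34. With 4 arrays a near profile is a description of these samples.

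**Figure D4:**
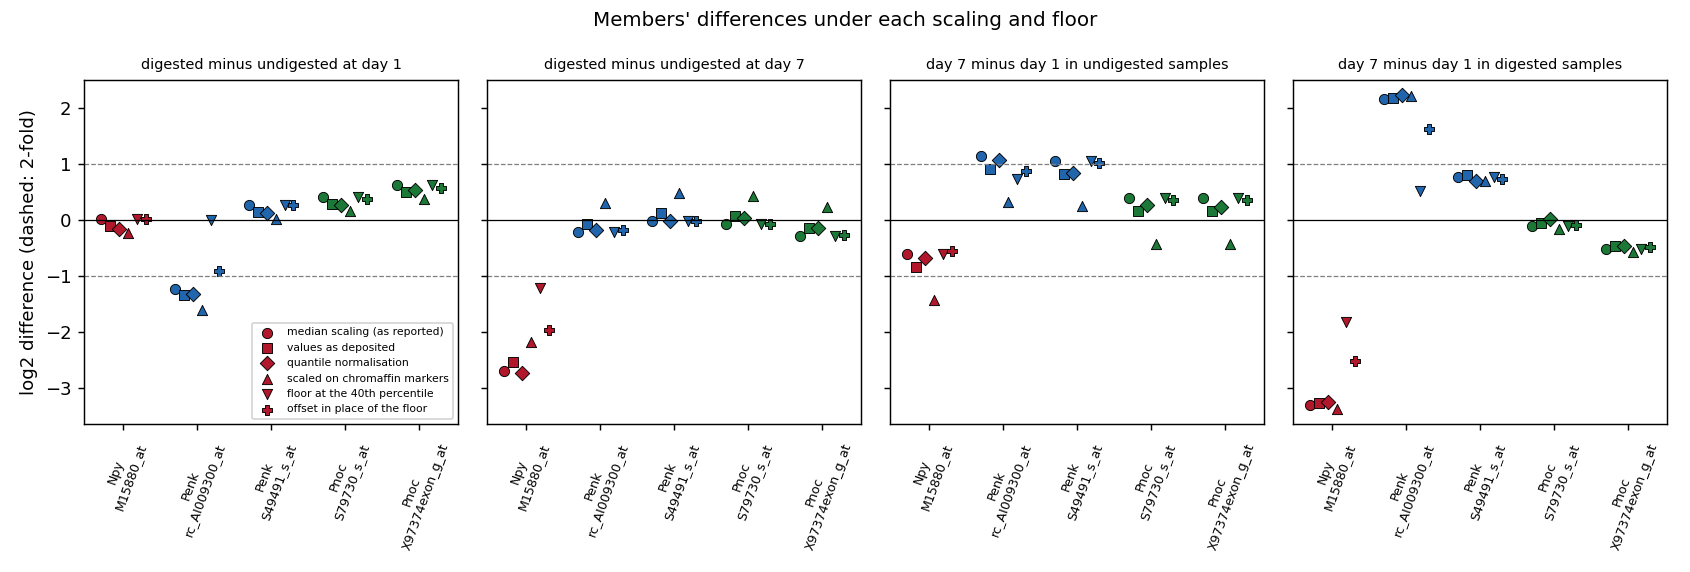
Log2 differences of the 5 member probe sets in the 4 comparisons under the scaling and floor reported and 5 alternatives (marker shapes), with 2-fold either way as dashed lines. Npy stays past 2-fold lower in both comparisons with the digested day 7 array under each setting, whereas Penk between the days in undigested samples ranges from 0.24 to 1.06 by its brighter probe set.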

How the data were processed

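The authors deposited 1 table of linear signal intensity per probe set for 4 arrays (1322 probe sets, 59 of them controls). How these signals were computed and scaled, and the genome build, are not given in the sources used here. The number of arrays, 1 per group, limits the precision. Names came from the array's probe table, whose gene identifiers were looked up in RefSeq's gene table (1132 of 1137 found, 0 symbols changed).

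Leaving out controls, 1263 probe sets remained, and factors of 0.927 to 1.09 gave every array the same median. The log2 was taken after raising lower values to the 20th percentile, a signal of 51.9. Alternatives were the values as deposited, quantile normalisation, scaling on the mean of Th, Ddc and Dbh, a higher floor (40th percentile), the floor's value added as an offset, all probe sets without the brightness filter, cutoffs of 1.5-fold and 3-fold, and an additive fit with limma 3.58.1 in R 4.3.3, whose p-values were adjusted over 632 probe sets by Benjamini-Hochberg. Leaving out a replicate was not possible. The steps were tested on simulated data. Python 3.11.15 with numpy 2.4.6, pandas 2.3.3 and matplotlib 3.10.9 was used.

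All member probe sets were named, with the 3 nearest profiles of each analysed one, up to 4 genes per list past 2-fold in any comparison with neither value at the floor, and Th and Dbh. Chga and Chgb were on that list but had no named probe set. A gene with several analysed probe sets was named by the brightest. The members and lists were chosen with earlier results of these data known.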

Additional observations from a re-analysis of the deposited data

Results flagged for a closer look

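The digestion difference turned sign between the days for each analysed member probe set, with 1 pair of arrays a day, and the difference between the days was not tested. For Npy it was 0.0084 at day 1 and -2.69 at day 7 (log2), and the first of these is close to 0. For Penk (S49491_s_at) it was 0.27 and -0.028. For Pnoc it was 0.40 and -0.079 by S79730_s_at and 0.62 and -0.29 by X97374exon_g_at. Other scalings gave no such turn for some of these. Npy at day 1 was -0.12 in the values as deposited, -0.16 after quantile normalisation and -0.24 on chromaffin markers, the sign it had at day 7. At day 7 Penk was 0.12 as deposited and 0.48 on chromaffin markers. At day 7 Pnoc was 0.065 as deposited, 0.026 after quantile normalisation and 0.43 on chromaffin markers by S79730_s_at, and 0.22 on chromaffin markers by X97374exon_g_at.

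The day difference turned sign between undigested and digested samples for both Pnoc probe sets, again untested. It was 0.38 in undigested and -0.10 in digested samples by S79730_s_at, and 0.39 and -0.51 by X97374exon_g_at. On chromaffin markers the undigested values were -0.43 and -0.42, so neither turned, and after quantile normalisation the digested value of S79730_s_at was 0.014. Apart from that of Npy at day 7, these differences were all smaller than 2-fold.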

How the results depend on the processing

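With 1 array per group, 2-fold took the place of a test's threshold. Of 173 recomputed values, 143 kept their side of it (or, for counts, stayed within 1.5 times), and 1 reversed while called. Values of limma's fit were judged by an adjusted p under 0.05 in place of 2-fold. Npy for digestion at day 1, at 0.01 before and -1.34 in that fit, thus counts as kept. Npy past 2-fold held under the 5 settings of scaling and floor, but limma's additive fit gave -1.34 for digestion and -1.96 for the day with no adjusted p under 0.05. Scaled on chromaffin markers, the day difference of Npy in undigested samples passed 2-fold, at -1.43. The day difference of Penk in undigested samples by S49491_s_at fell short of 2-fold in the values as deposited (0.82), after quantile normalisation (0.84), on chromaffin markers (0.24) and in limma's fit (0.91, adjusted p above the threshold). By rc_AI009300_at it was 0.90 as deposited, 0.32 on chromaffin markers, 0.73 with the higher floor and 0.88 with the offset. With the higher floor, where 2 of its 4 values lie at the floor, this probe set gave 0 for digestion at day 1, 0.51 for the day in digested samples and -0.21 for the difference of differences, which was 1.02 before and so reversed. With the offset it gave -0.92 for digestion at day 1 and 0.74 for the difference of differences.

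Counts past 2-fold for digestion at day 1 and day 7 and for the day in undigested and digested samples were 22, 72, 84 and 51. They became 208, 273, 284 and 242 without the filter on dim probe sets, 73, 176, 235 and 150 at 1.5-fold and 8, 25, 20 and 18 at 3-fold. Scaling on chromaffin markers gave 119 for digestion at day 7 and 188 for the day in undigested samples, with splits of 110 higher and 9 lower and of 4 and 184, against 44 and 28 and 46 and 38. As deposited the latter split was 20 and 59, after quantile normalisation 29 and 52. The former was 53 and 20 as deposited. For digestion at day 1 the split was 13 higher and 9 lower, and 11 and 12 after quantile normalisation, 7 and 12 as deposited and 7 and 14 on chromaffin markers. The median over the analysed probe sets moved by -0.13, 0.14, -0.23 and 0.04 without further scaling, by -0.13, 0.03, -0.17 and -0.01 after quantile normalisation and by -0.25, 0.51, -0.82 and -0.06 on chromaffin markers. The cause of these changes was not tested. No paired analysis was possible because the labels give no replicate that pairs the arrays, so no replicate block could be fitted. The additive fit gives a single digestion difference, averaged over both days, and none for a day alone. Whether a signal exceeded background was not measured.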
